A study of Mus musculus with 6 samples.

Results

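The genes described here make cholesterol and fatty acids in the lining of the jejunum, the middle stretch of the small intestine, here of mice. They were fixed as a list of 30 names: enzymes of the mevalonate and sterol pathways, the sterol-sensing regulators of these pathways, a sterol carrier, and enzymes that make, lengthen and desaturate fatty acids. A row of the array was taken as a member when its annotation gave exactly 1 gene symbol equal to a listed name, and where a gene had several such rows the row with the highest mean over the 6 arrays was kept. This gave 29 members among 19938 genes; Acat2 was not analysed here.

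RNA of total epithelial cell preparations was measured on whole-transcript Affymetrix arrays. The control group was 3 mice with R26-M2rtTA, a transcription activator that works in the presence of doxycycline and is expressed from the Rosa26 locus, which is active in most cell types and not in the epithelium alone. The transgenic group was 3 mice with R26-M2rtTA and a Musashi transgene under a TRE promoter, which responds to that activator. Mice of both groups drank doxycycline for 24 h before the cells were taken, and no mouse without doxycycline was measured. The series text names the transgene TRE-Msi1 and the genotype label names TRE-MSI2. Msi1, an RNA-binding protein, had log2 signals of 6.95, 7.03 and 6.86 on the control arrays and 12.51, 12.68 and 12.62 on the transgenic arrays (difference 5.66, SE 0.0894, limma adjusted p = 1.34e-05), while Msi2 had 8.59, 8.71 and 8.62 against 8.57, 8.08 and 8.01 (difference -0.42, SE 0.16, limma adjusted p = 0.168, and 0.0011 without transgenic replicate 1). Strain, age and sex of the mice were not analysed here.

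Cholesterol is built from acetyl-CoA through mevalonate to farnesyl diphosphate, which is joined head to head to squalene, closed to lanosterol and trimmed to cholesterol. Farnesyl diphosphate also feeds side branches to geranylgeranyl diphosphate, used to anchor small GTPases in membranes, and to dolichol, the carrier of sugars for glycoproteins. When sterols run low, the transcription factors SREBP-1 and SREBP-2 (genes Srebf1 and Srebf2) are cut free from the endoplasmic reticulum and switch on genes of both pathways, and the INSIG proteins hold them back when sterols are plentiful. Fatty acids are built from citrate by the products of Acly, Acaca and Fasn. The small intestine both makes and absorbs sterols and fat.

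The deposited values are log2 signals, with array medians from 6.27 to 6.34. Transgenic replicate 1 stood apart: its correlation with the other arrays across genes was 0.922 to 0.951, against 0.995 to 0.996 between controls and 0.996 between transgenic replicates 2 and 3. Results that rest on it are given with and without it. Epithelial markers were high in the control arrays, with a mean log2 signal of 12.25 to 12.35 over 14 measured enterocyte markers (absorptive cells), 11.00 to 11.02 over 9 goblet cell markers, 10.67 to 10.84 over 7 Paneth cell markers, 8.11 to 8.28 over 10 enteroendocrine and 6.76 to 7.76 over 6 tuft cell markers. Markers of fibroblasts and smooth muscle averaged 6.26 to 6.39 (11 genes), of endothelium 5.35 to 5.41 (7), of macrophages and dendritic cells 6.38 on each control array (10) and of adipocytes 6.25 to 6.38 (6), near the array medians or below them. T cell markers, which include those of intraepithelial lymphocytes, averaged 8.44 to 8.66 (10 genes).

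Promoters are shown first for 5 members: Hsd17b7 and Lss, which rose, Mvk and Tm7sf2, which fell, and Hmgcs1, the only member whose window held the SREBP motif searched for. Sequences are from RefSeq (GRCm38.p6), 250 bases before the annotated start of transcription, read 5′ to 3′ on the strand of the gene. Capitals mark the inverted CCAAT box (ATTGG on either strand), to which the SREBP partner NF-Y binds, and in Hmgcs1 also the SREBP motif. Mvk lies at chr5:114444019-114444268 on the plus strand, Hsd17b7 at chr1:169969206-169969455 on the minus strand, Lss at chr10:76531355-76531604 on the plus strand, Tm7sf2 at chr19:6067851-6068100 on the minus strand and Hmgcs1 at chr13:119690101-119690350 on the plus strand.
Mvk: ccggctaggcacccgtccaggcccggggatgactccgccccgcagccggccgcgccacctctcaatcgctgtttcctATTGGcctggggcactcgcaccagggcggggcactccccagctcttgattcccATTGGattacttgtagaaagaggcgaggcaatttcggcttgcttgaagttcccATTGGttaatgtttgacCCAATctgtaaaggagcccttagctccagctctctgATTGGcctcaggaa
Hsd17b7: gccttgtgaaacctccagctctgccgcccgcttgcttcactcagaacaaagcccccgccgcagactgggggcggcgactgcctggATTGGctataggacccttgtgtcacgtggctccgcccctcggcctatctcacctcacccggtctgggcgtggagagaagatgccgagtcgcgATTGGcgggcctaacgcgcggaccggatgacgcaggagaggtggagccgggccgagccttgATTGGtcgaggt
Lss: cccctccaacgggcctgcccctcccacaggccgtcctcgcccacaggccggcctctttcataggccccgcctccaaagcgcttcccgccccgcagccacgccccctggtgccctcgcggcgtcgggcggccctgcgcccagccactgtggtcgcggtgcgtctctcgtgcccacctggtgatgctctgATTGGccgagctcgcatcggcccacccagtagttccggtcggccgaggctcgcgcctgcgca
Tm7sf2: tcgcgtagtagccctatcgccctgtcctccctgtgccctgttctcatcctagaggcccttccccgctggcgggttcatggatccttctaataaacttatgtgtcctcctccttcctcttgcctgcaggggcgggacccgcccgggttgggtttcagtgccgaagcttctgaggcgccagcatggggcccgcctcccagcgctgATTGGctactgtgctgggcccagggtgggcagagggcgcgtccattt
Hmgcs1: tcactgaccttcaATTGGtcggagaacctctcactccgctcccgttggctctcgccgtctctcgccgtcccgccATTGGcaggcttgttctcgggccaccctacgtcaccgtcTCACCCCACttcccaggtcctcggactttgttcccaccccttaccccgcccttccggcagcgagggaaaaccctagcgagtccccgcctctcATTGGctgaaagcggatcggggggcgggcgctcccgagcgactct

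Each of these promoters, whether of a gene that rose or of a gene that fell, held at least 1 inverted CCAAT box. Mvk had 5, with first bases at -173, -120, -67, -50 and -14 from the start, and Hsd17b7 had 3, at -165, -73 and -12. Lss had 1 at -62, Tm7sf2 had 1 at -47, and Hmgcs1 had 3 before its start, at -237, -176 and -45, and 1 more at 10 beyond it. The motifs were searched on both strands in windows from 250 bases before to 50 after each start. Of the 30 listed genes 24 had at least 1 window in the table, with 31 windows in all, and the windows of 1 gene can share sequence. The inverted CCAAT box was in 22 of these 31 windows (71.0%) and in 37.4% of all 32851 windows. The GC box of Sp1 (GGGCGG) was likewise in 22 of 31 (71.0%), against 35.7% of all windows. The E-box CACGTG was in 4 of 31 (12.9%, against 7.15%), and the SREBP motif TCACNCCAC, where N is any base, was in 1 of 31 (3.23%, against 1.24%), at -137 of Hmgcs1. The search found exact letters only, and motifs may overlap each other or lie outside these windows.

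The synthesis genes did not move as a block. Of the 29 members 4 rose and 3 fell in the transgenic arrays, and 22 did not pass the test (limma adjusted p under 0.05 over all 19938 genes). Ggps1, Fdft1, Lss and Hsd17b7 rose, and Mvk, Tm7sf2 and Dhcr7 fell. The share that passed was 24.1%, beside 11.9% of all genes, of which 6.04% rose and 5.84% fell. The members were chosen with earlier results of these data known, so this share is a description and not a test. The 11.9% includes dim genes. With the dimmest 40% of genes left out, 2340 genes passed, against 2368 with all. The share of genes that passed was thus higher there and nearer to that of the members, of which only Scd1 was left out. The members that passed in that setting were the same 7. Shares of all genes given below, beside the signals without overlap, the arms and the lists, include dim genes too. The members' median difference, transgenic minus control, was 0.16 on the log2 scale, with a range from -1.37 to 1.31, beside a median of -0.04 over all genes. The members' median was 0.09 without transgenic replicate 1 and 0.04 with array weights. The transgenic and control signals did not overlap for 16 of the 29 members, 10 with the transgenic arrays above and 6 with them below, or 55.2% beside 34.2% of all genes. In such cell preparations fewer cells of a type and less RNA per cell cannot be told apart.

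The count of members that passed depended on which arrays entered. Without transgenic replicate 1 it was 11 (6 rose and 5 fell), where 28.6% of all genes passed, 14.0% as higher and 14.5% as lower. It was 2 without control replicate 1, control replicate 2 or transgenic replicate 2, 3 without control replicate 3, and 5 without transgenic replicate 3. Over all genes the count fell too in these 5 settings, from 2368 to 683, 728, 1169, 879 and 1759 in the same order. The lower counts were thus not particular to the members. Ggps1 and Hsd17b7 passed in each of these 6 settings, and in each of them all 7 kept their direction. With equal array medians 4 rose and 1 fell, as Mvk and Dhcr7 no longer passed.

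**Figure D1:**
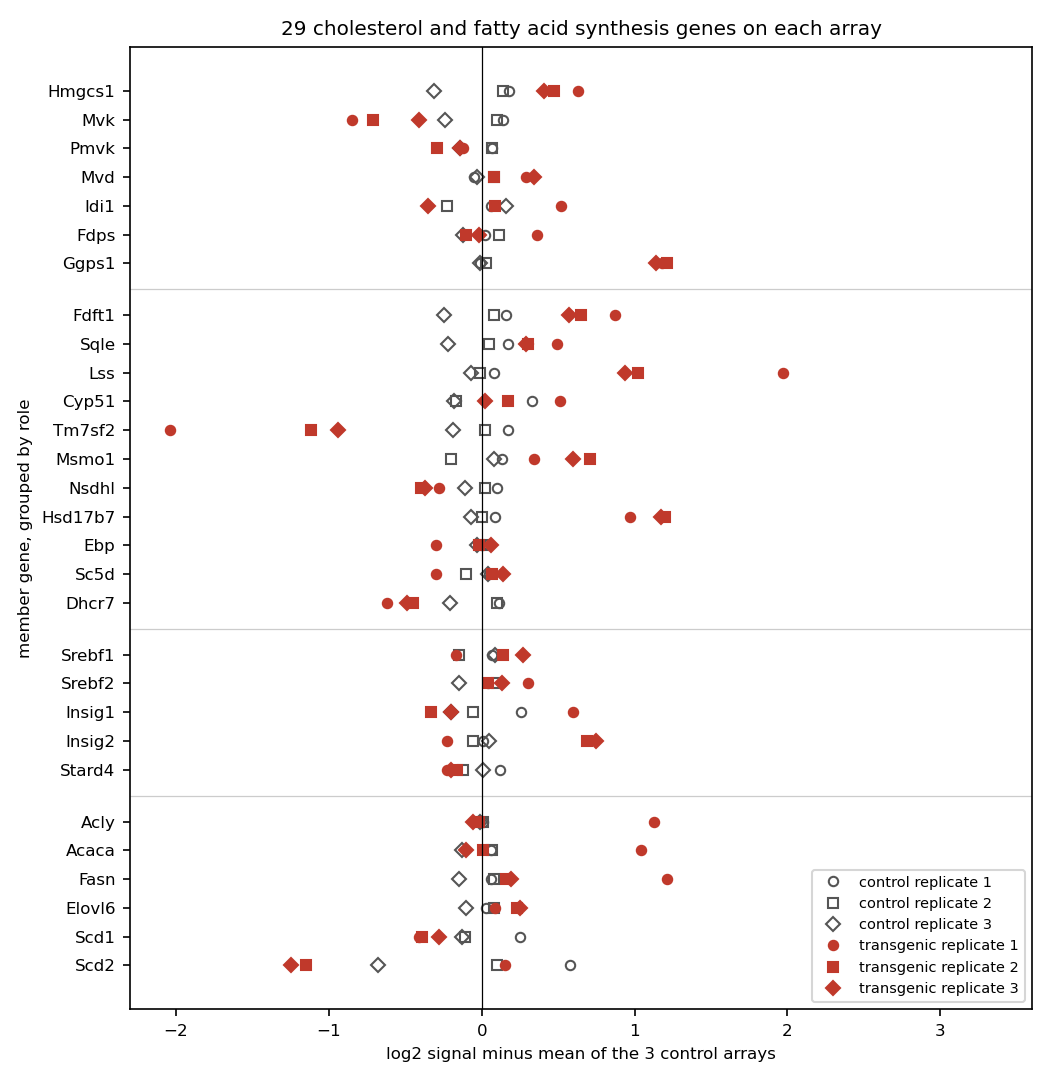
Log2 signal of each of the 29 members on each array, minus the mean of the 3 control arrays (open symbols, control; filled symbols, transgenic; the symbol shape is the replicate number). Members are grouped by role, from the top: mevalonate arm, sterol arm, regulators and sterol carrier, fatty acid arm. The transgenic arrays lie to the right of the controls for Ggps1, Fdft1, Lss and Hsd17b7 and to the left for Mvk, Tm7sf2 and Dhcr7, and transgenic replicate 1 is on its own to the right for Acly, Acaca and Fasn.

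**Figure D2:**
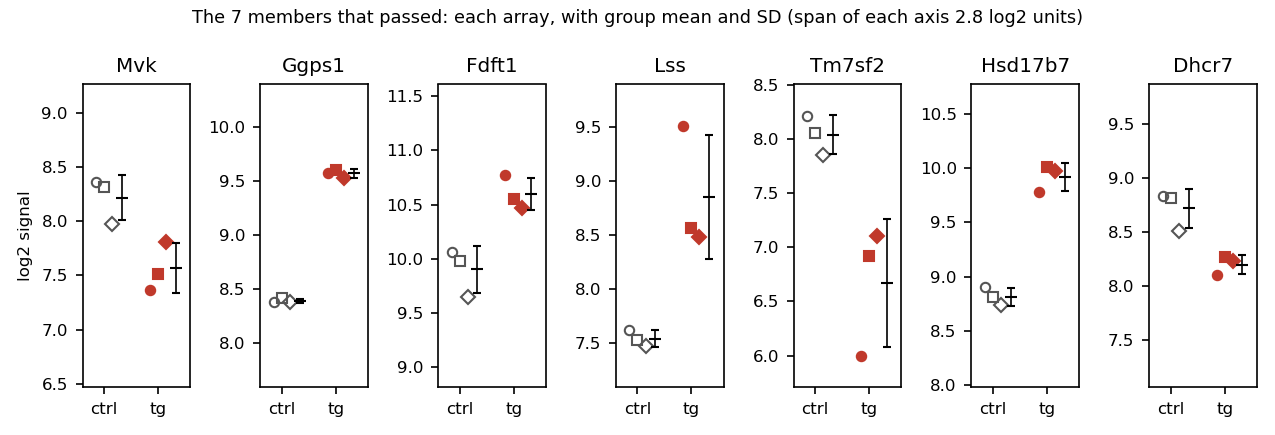
Log2 signals of the 7 members that passed, by array, with the group mean and SD beside the points (3 control arrays, open; 3 transgenic arrays, filled). The groups do not overlap for any of the 7, and the spread of the transgenic arrays is widest for Lss (SD 0.57) and Tm7sf2 (SD 0.59).

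The mevalonate arm had 7 measured members, of which 1 rose and 1 fell (28.6%, beside 11.9% of all genes). Ggps1, which makes geranylgeranyl diphosphate from farnesyl diphosphate and so opens a side branch, had log2 signals of 8.38, 8.42 and 8.38 on the control arrays and 9.57, 9.60 and 9.53 on the transgenic arrays. The transgenic signals lay in a narrow band above all controls. The difference was 1.17 (SE 0.0722, limma adjusted p = 0.00137), or 2.25-fold, and 1.17 without transgenic replicate 1. It passed with any single array left out, with a limma adjusted p of at most 0.0168.

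Mvk, the kinase that phosphorylates mevalonate, went the other way. Its signals were 8.36, 8.32 and 7.98 on the control arrays and 7.37, 7.51 and 7.81 on the transgenic arrays. The lowest control and the highest transgenic array lay close together, and the groups did not overlap. The difference was -0.66 (SE 0.159, limma adjusted p = 0.0498), or 1.57-fold lower, and -0.56 without transgenic replicate 1. The call was lost without any 1 control or transgenic replicate 2 (limma adjusted p up to 0.19).

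Mmab, which is no member but a gene of vitamin B12 metabolism from the list of sterol pathway genes outside the members, is the annotated neighbour of Mvk. The 2 start sites are 242 bases apart on opposite strands, so the promoter of Mvk printed above is also that of Mmab. Mmab had 7.39, 7.42 and 7.11 on the control arrays and 6.75, 6.68 and 6.75 on the transgenic arrays. It fell as well, by 0.58 on the log2 scale (SE 0.106, limma adjusted p = 0.0215), a call that held only with transgenic replicate 1 or control replicate 3 left out (limma adjusted p otherwise up to 0.107). In both genes control replicate 3 was the lowest control.

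Hmgcs1, which makes HMG-CoA and carries the SREBP motif shown above, had 9.82, 9.78 and 9.33 on the control arrays and 10.27, 10.11 and 10.05 on the transgenic arrays. All transgenic signals were above all controls, and the control spread (SD 0.27) was wider than the transgenic spread (SD 0.11). The difference of 0.50 (95% interval 0.13 to 0.87) did not pass (limma adjusted p = 0.0972). The further steps to farnesyl diphosphate also did not pass: Pmvk, the second kinase of the arm, differed by -0.18, Mvd, the decarboxylase, by 0.24, Idi1, the isomerase, by 0.09, and Fdps, the farnesyl diphosphate synthase, by 0.08. For Idi1 and Fdps the sign turned without transgenic replicate 1 (-0.13 and -0.06). A second row of Idi1 differed by 0.11.

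Of the 11 members of the sterol arm 3 rose and 2 fell (45.5%, beside 11.9% of all genes). With 1 array left out the arm had 7 calls without transgenic replicate 1, where 28.6% of all genes passed. Otherwise it had 1 to 3, in settings where fewer of all genes passed as well. Fdft1, the squalene synthase that commits farnesyl diphosphate to sterols, had 10.06, 9.98 and 9.65 on the control arrays and 10.77, 10.55 and 10.47 on the transgenic arrays. Every transgenic array was above every control, with control replicate 3 the lowest. The difference was 0.70 (SE 0.141, limma adjusted p = 0.0286), or 1.62-fold, and a second row of the gene differed by 0.86. Fdft1 kept its call only without transgenic replicate 1, where the difference was 0.61, and lost it without any other array (limma adjusted p up to 0.0983).

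Lss, which closes squalene epoxide to lanosterol, had 7.62, 7.53 and 7.47 on the control arrays and 9.51, 8.56 and 8.48 on the transgenic arrays. Transgenic replicate 1 was the highest by far, and the other transgenic arrays also lay above all controls. The difference was 1.31 (SE 0.277, limma adjusted p = 0.0329), or 2.48-fold, and 0.98 without transgenic replicate 1. The call was lost without any 1 control or transgenic replicate 2 (limma adjusted p up to 0.131). Sqle, the epoxidase of the step before, had 8.92, 8.80 and 8.53 against 9.24, 9.05 and 9.04. These groups did not overlap either, but the difference of 0.36 (95% interval 0.05 to 0.67) did not pass (limma adjusted p = 0.141).

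Hsd17b7, the ketoreductase that restores the hydroxyl group of the sterol after demethylation, had the lowest p of the sterol arm. Its signals were 8.90, 8.81 and 8.74 on the control arrays and 9.78, 10.01 and 9.98 on the transgenic arrays. Here transgenic replicate 1 was the lowest of its group and still above all controls. The difference was 1.11 (SE 0.0981, limma adjusted p = 0.00268), or 2.16-fold, and 1.18 without transgenic replicate 1, with a limma adjusted p of at most 0.0244 with any single array left out.

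Tm7sf2, a reductase of the sterol ring, fell furthest of the 29 members. It had 8.21, 8.06 and 7.85 on the control arrays and 6.0, 6.92 and 7.10 on the transgenic arrays. Transgenic replicate 1 was the lowest, about as far below the other transgenic arrays as these were below the controls. The difference was -1.37 (SE 0.295, limma adjusted p = 0.0349), or 2.58-fold lower, and -1.03 without transgenic replicate 1. The call was lost without any 1 control or transgenic replicate 2 (limma adjusted p up to 0.141).

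Dhcr7, which saturates the last double bond on a route to cholesterol, had 8.83, 8.82 and 8.51 on the control arrays and 8.10, 8.27 and 8.23 on the transgenic arrays. All transgenic signals were below all controls. The difference was -0.52 (SE 0.117, limma adjusted p = 0.0405), or 1.43-fold lower, and -0.47 without transgenic replicate 1. The call held only with transgenic replicate 1 or control replicate 3 left out (limma adjusted p otherwise up to 0.168).

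Of the other sterol enzymes Msmo1 and Nsdhl, which strip methyl groups from the sterol just before Hsd17b7, lay close to the threshold on opposite sides of 0. Msmo1, the oxidase, differed by 0.55 (95% interval 0.21 to 0.89, limma adjusted p = 0.0578), and Nsdhl, the decarboxylating dehydrogenase, by -0.35 (-0.57 to -0.14, limma adjusted p = 0.0573). Without transgenic replicate 1 both passed, Msmo1 at 0.65 and Nsdhl at -0.39. Cyp51, the lanosterol demethylase, differed by 0.24, Ebp, an isomerase, by -0.09, and Sc5d, a desaturase, by -0.03, and none of these passed. Ebp and Sc5d had the opposite sign without transgenic replicate 1 (0.02 and 0.11), and Sc5d also with equal array medians (0.04).

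**Figure D3:**
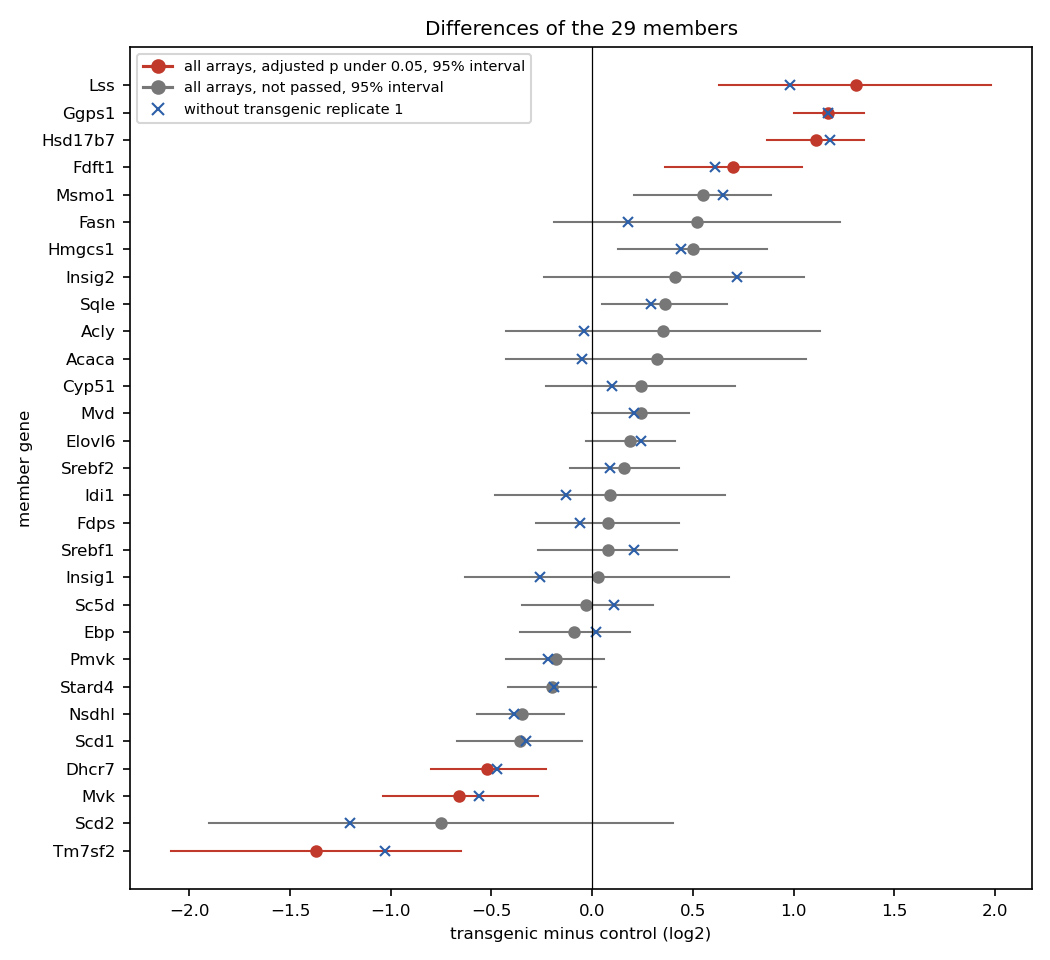
Difference of each of the 29 members, transgenic minus control on the log2 scale, sorted by size: points with 95% intervals from limma over all 6 arrays (red, passed; grey, not passed) and crosses for the value without transgenic replicate 1. Enzymes of the sterol arm are found at both ends, with Lss at 1.31 and Tm7sf2 at -1.37.

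The regulators and the sterol carrier did not pass, 0 of 5, by limma with all arrays, beside 11.9% of all genes. With 5 genes this cannot be told apart from the share over all genes. Srebf2, the SREBP of sterol synthesis, had 9.17, 9.23 and 8.98 on the control arrays and 9.43, 9.17 and 9.26 on the transgenic arrays, and the groups overlapped (difference 0.16, 95% interval -0.11 to 0.43, limma adjusted p = 0.47). Srebf1, whose products act mainly on fatty acid genes, had 8.47, 8.25 and 8.49 against 8.23, 8.54 and 8.67, with overlap too (difference 0.08, 95% interval -0.27 to 0.42, limma adjusted p = 0.809). These are signals of the transcripts, and the cut, active form of the proteins was not measured.

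The INSIG genes were split by array. Insig1, itself a well-known SREBP target, had 9.54, 9.22 and 9.08 on the control arrays and 9.88, 8.95 and 9.08 on the transgenic arrays (difference 0.03, 95% interval -0.63 to 0.68, limma adjusted p = 0.971). Transgenic replicate 1 was the highest array and transgenic replicate 2 the lowest. Insig2, which is not driven by SREBP in the same way, had 10.13, 10.06 and 10.17 against 9.89, 10.81 and 10.87. Transgenic replicate 1 was below all controls and the other transgenic arrays above them, and the difference of 0.41 did not pass (limma adjusted p = 0.433). Without transgenic replicate 1 Insig2 passed at 0.72, while Insig1 was at -0.26 and did not pass. Stard4, a carrier of cholesterol between membranes, had 10.19, 9.95 and 10.08 against 9.84, 9.91 and 9.87, lower in every transgenic array, and did not pass (difference -0.20, 95% interval -0.42 to 0.02, limma adjusted p = 0.238).

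No gene of the fatty acid arm passed with all arrays by limma, 0 of 6, beside 11.9% of all genes. With 6 genes this cannot be told apart from the share over all genes. The first 3 enzymes were high on 1 transgenic array. Acly, which splits citrate to acetyl-CoA, had 8.04, 8.04 and 8.02 on the control arrays and 9.16, 8.01 and 7.97 on the transgenic arrays. Acaca, which carboxylates acetyl-CoA, had 7.69, 7.70 and 7.50 against 8.67, 7.64 and 7.53, and the values per array of these 2 genes were chosen for print after they were seen. Fasn, the fatty acid synthase, had 8.57, 8.59 and 8.36 against 9.72, 8.67 and 8.70. In all 3 genes transgenic replicate 1 was the highest array, while transgenic replicates 2 and 3 lay within the control range for Acaca, slightly below it for Acly and slightly above it for Fasn. The differences were 0.35, 0.32 and 0.52 with all arrays and -0.04, -0.05 and 0.18 without transgenic replicate 1. A second row of Acaca differed by 0.20.

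The desaturases and the elongase showed other patterns. Scd2, a stearoyl-CoA desaturase, had 9.59, 9.11 and 8.33 on the control arrays and 9.16, 7.86 and 7.76 on the transgenic arrays. The controls were themselves spread widely (SD 0.63), and transgenic replicate 1 lay among them. The difference of -0.75 did not pass (95% interval -1.90 to 0.40, limma adjusted p = 0.415), but without transgenic replicate 1 Scd2 fell by 1.20 on the log2 scale (limma adjusted p = 0.0166). Scd1, its close paralog, had 5.26, 4.90 and 4.88 against 4.60, 4.62 and 4.73, below the array medians in all 6 arrays, and did not pass (difference -0.36, limma adjusted p = 0.136). Cross-hybridisation between these paralogs was not tested. Elovl6, which lengthens the product of Fasn, had 10.63, 10.68 and 10.50 against 10.69, 10.83 and 10.85, higher in every transgenic array by a small amount, and did not pass (difference 0.19, limma adjusted p = 0.274).

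Transgenic replicate 1 differed from the mean of the other transgenic arrays by more than 0.5 on the log2 scale in 9 of 29 members, namely Idi1, Lss, Tm7sf2, Insig1, Insig2, Acly, Acaca, Fasn and Scd2, beside 26.0% of all genes. The median of the fatty acid arm was 0.60 above the control mean on that array, against -0.01 and -0.08 on transgenic replicates 2 and 3. The medians of the mevalonate and sterol arms were 0.36 and 0.34 on it, against 0.08 and -0.02, and 0.18 and 0.14. Cell type markers moved on the same array. The enterocyte list (14 of 15 measured, 0 passed by limma) had a median of -2.45 there and -0.16 and -0.20 on the other transgenic arrays, with a mean log2 signal of 9.56 to 11.93 in the transgenic group. The crypt proliferation list (14 of 15, 0 passed) was at 0.93 there and at -0.38 and -0.37 on the others, with means of 8.75 to 8.85 in the controls and 8.35 to 10.06 in the transgenic group. Paneth cell markers (7 of 9, 0 passed) were at 1.19 against -1.27 and -1.34, and T cell markers (10 of 10, 0 passed) at -2.55 against -0.62 and -0.63, with transgenic means of 9.81 to 12.02 and 5.68 to 7.98. Without this array, 6 enterocyte, 6 Paneth and 8 T cell markers passed as lower and 1 Paneth cell marker as higher. Of the proliferation markers 8 passed as lower and 1 as higher without it. Over all genes 14.5% passed as lower and 14.0% as higher in that setting, and 11.9% passed with all arrays. The part of these cell type markers in the members' differences was not tested.

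**Figure D4:**
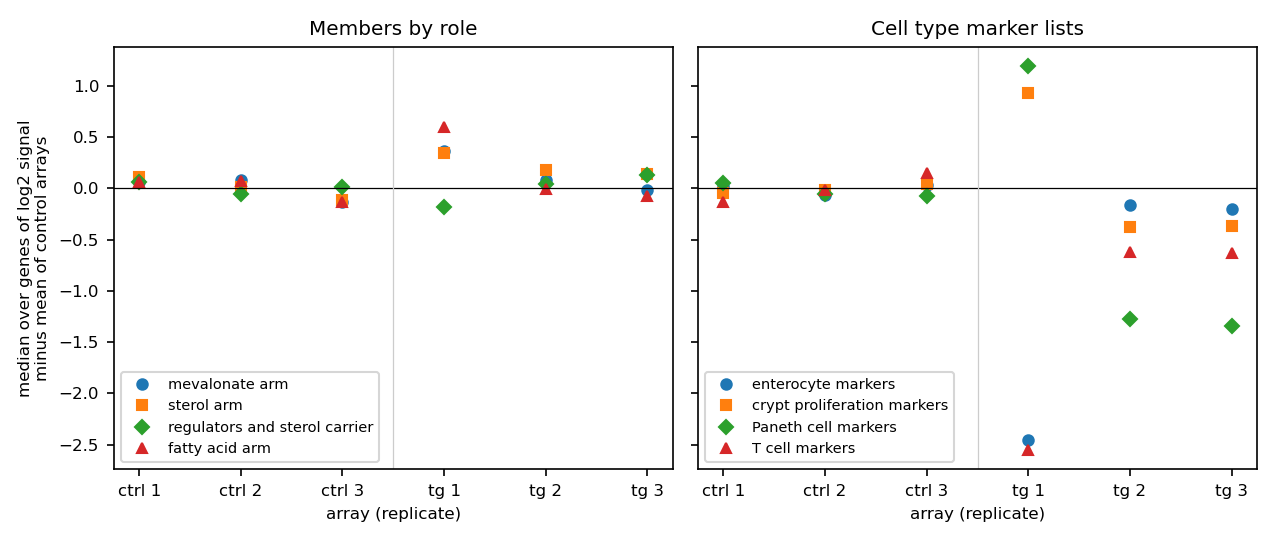
Median over genes of the log2 signal minus the control mean, for each array (ctrl, control; tg, transgenic; numbers are replicates): left, the members by role; right, 4 lists of cell type markers. On transgenic replicate 1 the fatty acid arm is at 0.60, proliferation markers at 0.93 and enterocyte markers at -2.45.

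Goblet cell markers were at -0.77, -0.35 and -0.32 (3 of 9 fell) and enteroendocrine markers at -0.77, -0.42 and -0.35 (4 of 10 fell), while crypt base stem cell markers were at 0.74, -0.41 and -0.55 (1 of 10 rose, 2 fell). Over all genes 6.04% rose and 5.84% fell. With transgenic replicate 1 left out, 6 goblet cell markers fell, and 5 enteroendocrine markers fell and 1 rose. In that setting 6 stem cell markers fell and 1 rose, where over all genes 14.5% fell and 14.0% rose. Tuft cell markers were at -0.16, -0.31 and -0.20 (0 of 6 passed by limma). Among the lists of cells outside the epithelium 1 of 11 fibroblast and smooth muscle markers fell, and 0 passed by limma of 7 endothelial, 10 macrophage and dendritic cell and 6 adipocyte markers. Among these lists 2 fibroblast and smooth muscle markers fell, 1 macrophage and dendritic cell marker rose and 3 fell, and 1 adipocyte marker rose without transgenic replicate 1. Within the controls the members also varied together: replicate 3 was the lowest control for 21 of 29 members (72.4%), beside 44.5% of all genes, and for all 6 genes of the fatty acid arm.

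Related lists (7 in all) set the members in their surroundings. Of their 97 measured genes 23 passed (23.7%, beside 11.9% of all genes, dim ones included). The lists were chosen with earlier results of these data known, so their shares are descriptions and test nothing about the pathways. Without transgenic replicate 1, 52.6% of them passed, beside 28.6% of all genes, so the counts for each list are given both ways where they differ by more than 1.5 times. Of 7 measured sterol pathway genes outside the members 2 rose and 2 fell. Both subunits of the enzyme that draws farnesyl diphosphate towards dolichol rose: Nus1 had 10.41, 10.45 and 10.52 on the control arrays and 11.27, 11.34 and 11.23 on the transgenic arrays (difference 0.82, SE 0.0776, limma adjusted p = 0.00323), and Dhdds differed by 0.64 (limma adjusted p = 0.038). Nus1 kept its call with any single array left out, and Dhdds lost it without any array but transgenic replicate 1 (limma adjusted p up to 0.1). Ggps1, described above, draws on the same substrate. Acat1, the mitochondrial thiolase, fell by 0.94 on the log2 scale (limma adjusted p = 0.0159), a call lost without any 1 control or transgenic replicate 2 (limma adjusted p up to 0.0746), and Mmab is described above with Mvk.

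Genes of sterol sensing, uptake and efflux were called in numbers that depended on transgenic replicate 1. With all arrays 1 gene passed in each of these 3 lists (7.69%, 8.33% and 9.09%, beside 11.9% of all genes). Without that array, where 28.6% of all genes passed, 2 rose and 3 fell of 13 genes of SREBP processing and degradation. In the same setting 7 rose and 2 fell of 12 of sterol uptake and transport, and 2 rose and 4 fell of 11 of LXR signalling and sterol efflux. These lists share genes. Lpcat3, which fell, is counted under SREBP processing and under LXR, and Mylip, which rose, under uptake and under LXR. With all arrays, of 13 genes of SREBP processing and degradation 1 rose, Ubxn4, a factor of protein disposal at the endoplasmic reticulum (0.63, limma adjusted p = 0.00897), a call lost without control replicate 1 or 3 (limma adjusted p up to 0.0594). Of 12 genes of sterol uptake and transport 1 rose, the lipid carrier Stard5, with 8.52, 8.48 and 8.53 on the control arrays and 9.53, 9.25 and 9.28 on the transgenic arrays (0.84, limma adjusted p = 0.0059). Of 11 genes of LXR signalling and sterol efflux 1 fell, the partner receptor Rxra, with 9.23, 9.21 and 9.21 against 7.06, 8.03 and 8.06. Its difference was -1.50 (SE 0.272, limma adjusted p = 0.0211), and -1.17 without transgenic replicate 1, and the call was lost without any 1 control (limma adjusted p up to 0.0937). The LXR list had a median of -1.20 on transgenic replicate 1 and 0.03 and 0.04 on the other transgenic arrays.

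Of 29 other genes of fatty acid synthesis, elongation and desaturation 4 rose and 6 fell (34.5%, beside 11.9% of all genes). Mlxipl, the carbohydrate-responsive transcription factor ChREBP, had 9.92, 9.85 and 9.97 on the control arrays and 7.34, 8.24 and 8.26 on the transgenic arrays. Every transgenic array was more than 1 log2 unit below the controls, and the fall of 1.97 on the log2 scale (SE 0.254, limma adjusted p = 0.00731), or 3.92-fold, kept its call with any single array left out (limma adjusted p up to 0.0464). Tecr, the last enzyme of each elongation round, fell by 0.68 (limma adjusted p = 0.00581), and Slc25a1, which exports citrate from mitochondria, by 0.61 (limma adjusted p = 0.0111). Hsd17b12, the ketoacyl reductase of elongation, rose by 0.64 (limma adjusted p = 0.0119). Tecr kept its call with any single array left out, and Slc25a1 and Hsd17b12 lost theirs without any 1 control (limma adjusted p up to 0.071 and 0.0702).

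Further members of this list with a higher p passed too, and are named because a count would hide them. The desaturases Fads1 and Fads2, which make long polyunsaturated fatty acids, fell by 1.45 and 1.43 (limma adjusted p = 0.0306 and 0.0245). The acetate-activating enzyme Acss2 fell by 0.98 (limma adjusted p = 0.0477). The elongase Elovl7 rose by 1.06 (limma adjusted p = 0.0499), the dehydratase Hacd2 by 0.42 (limma adjusted p = 0.0217) and the mitochondrial synthase Oxsm by 0.33 (limma adjusted p = 0.0454). These 6 were named after their values were seen. Fads1, Fads2, Acss2, Elovl7 and Oxsm kept the call only without transgenic replicate 1, and Hacd2 only without it or transgenic replicate 3. Without transgenic replicate 1 the differences of Fads1 and Fads2 were -1.80 and -1.76.

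**Figure D5:**
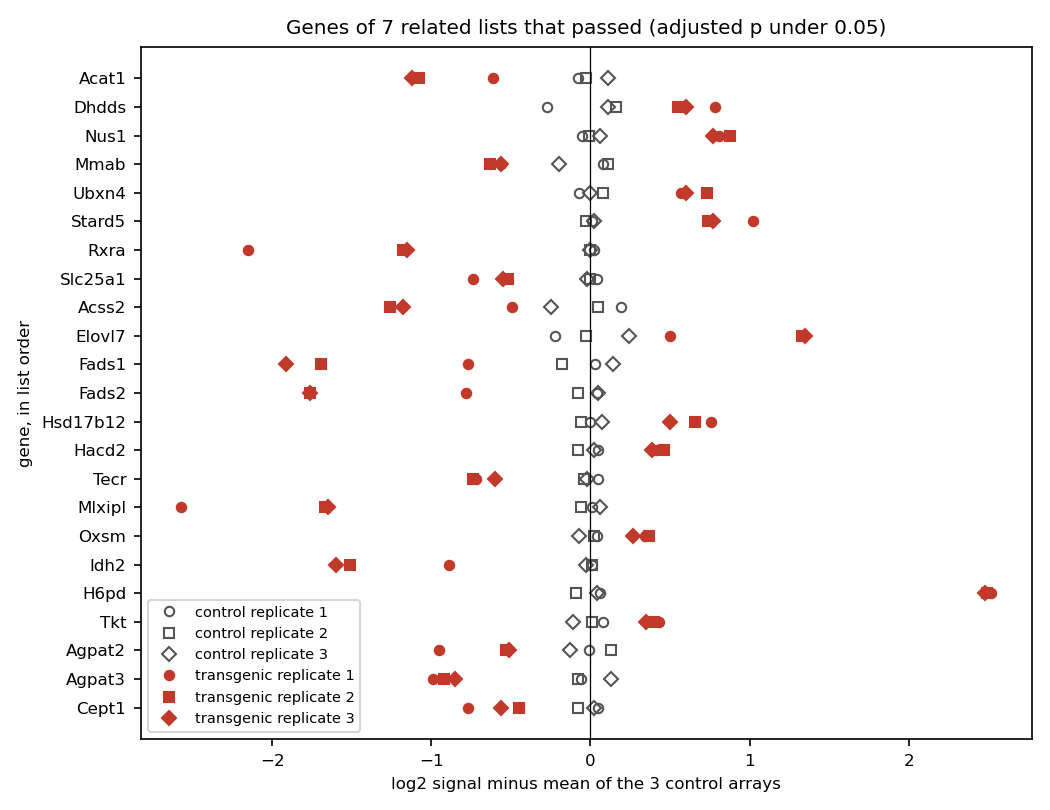
Log2 signal of the 23 genes of the 7 related lists that passed, on each array, minus the mean of the 3 control arrays (open symbols, control; filled, transgenic; the shape is the replicate number). H6pd lies furthest to the right, with all 3 transgenic arrays together, and Mlxipl has the array furthest to the left, transgenic replicate 1.

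Of 8 genes listed for the supply of NADPH, the reductant of both pathways, 2 rose, 1 fell and 5 did not pass. The share that passed was 37.5%, beside 11.9% of all genes. The cytosolic producers Pgd, Me1 and Idh1 did not pass (limma adjusted p = 0.326, 0.723 and 0.986). H6pd, which makes NADPH inside the endoplasmic reticulum, had 7.29, 7.14 and 7.27 on the control arrays and 9.75, 9.72 and 9.71 on the transgenic arrays. The 3 transgenic arrays were nearly equal and far above the controls. The rise was 2.50 (SE 0.0793, limma adjusted p = 2.24e-04), or 5.64-fold, and 2.49 without transgenic replicate 1. Idh2, the mitochondrial isocitrate dehydrogenase, fell by 1.33 on the log2 scale (SE 0.192, limma adjusted p = 0.0103), a call lost without any 1 control. Tkt, the transketolase, which itself makes no NADPH, rose by 0.40 (limma adjusted p = 0.0338), a call kept only without transgenic replicate 1.

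Of 20 genes of triglyceride and phospholipid synthesis 0 rose and 3 fell by limma with all arrays (15.0%, beside 11.9% of all genes). Without transgenic replicate 1, where 28.6% of all genes passed, 4 rose and 9 fell. Agpat3 and Agpat2, which add the second acyl chain and so make phosphatidic acid, fell by 0.92 and 0.66 (limma adjusted p = 0.00373 and 0.0388). Cept1, which completes phosphatidylcholine and phosphatidylethanolamine, fell by 0.59 (limma adjusted p = 0.0212). Agpat2 passed only with all arrays or with transgenic replicate 1 left out (otherwise limma adjusted p up to 0.154). Cept1 still passed with transgenic replicate 1 or 2 left out. It did not pass when a single control array, or transgenic replicate 3, was dropped (limma adjusted p up to 0.106). Agpat3 had 10.07, 10.05 and 10.26 on the control arrays and 9.14, 9.21 and 9.28 on the transgenic arrays, and kept its call with any single array left out. Transgenic replicate 1 had a median of -1.11 over this list, and the other transgenic arrays -0.20 and -0.12. Over the 7 lists 51 genes passed without transgenic replicate 1, and 6 without control replicate 1, 7 without control replicate 2 or 3, 12 without transgenic replicate 2 and 13 without transgenic replicate 3. Over all genes the counts were 5700, 683, 728 (control replicate 2), 879 (control replicate 3), 1169 and 1759 in these settings.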

How the data were processed

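The 6 jejunal epithelial preparations were grouped by the sample titles, 3 control and 3 transgenic. The log2 signals were deposited by the authors, and the submitters' processing notes name RMA and Partek 6.5 without settings. RMA makes arrays nearly equal in distribution, which hides a change in total RNA and compresses low signals. The series text calls the samples animals, so each array is 1 replicate, and their number limits the precision.

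Of 35399 rows 21789 had 1 symbol in the platform annotation. With 1 row kept per gene, 19938 genes entered the linear models of limma (version 3.58.1, R 4.3.3, lmFit with eBayes), and p-values were adjusted by Benjamini-Hochberg over all of them. The threshold was an adjusted p of 0.05, and rose and fell mean that a gene met it. The test was run on simulated data in which each gene had the same spread on every array. Those data held no array that stood apart as transgenic replicate 1 does, so they cannot check the test for that. SDs are over 3 arrays. Exact permutation of 3 against 3 arrays reaches p = 0.1 at the lowest and made no calls.

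Members and lists were chosen with earlier results of these data known. Values per array are given for members that passed, SREBP and INSIG genes and up to 3 members per role with the largest differences, and for Sqle and Elovl6 for their place in the pathway. Of each related list up to 4 genes with the smallest p are named, with additions marked, and 15 list entries were not analysed here. Motifs were counted without a test. Protein sequences were not used here.

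Tried as alternatives were quantile normalization, arrays set to equal medians, dropping the dimmest 40% of genes, the replicate number as a block, trended and robust eBayes, array weights, averaging the rows of a gene, a threshold of 0.1, and each array left out. Leaving out replicate 1 of both groups was added after seeing the data.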

Additional observations from a re-analysis of the deposited data

How the results depend on the processing

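The number of members that passed was 7 with all arrays, 2 with the replicate block and 12 with array weights, and from 2 to 11 with any 1 array left out. Over all genes it was 2368, 733 with the block, 5770 with array weights, 683 to 5700 with any 1 array left out and 4573 without replicate 1 of both groups. Of the related lists 23 genes passed, 7 with the block, 43 with array weights, 6 to 51 with any 1 array left out and 38 without replicate 1 of both groups. What arrays with the same replicate number share was not tested. Across all genes their deviations from the group means correlated at -0.07, -0.17 and -0.12. The sterol arm median of 0.24 was 0.05 with array weights and 0.11 to 0.41 with any 1 array left out. Signs turned only for differences that did not pass. With array weights Idi1 was at -0.03, Fdps at -0.06, Sc5d at 0.05 and Insig1 at -0.34, and with equal array medians Sc5d was at 0.04. With arrays left out (1, or replicate 1 of both groups) Idi1 ranged from -0.13 to 0.31, Fdps from -0.06 to 0.17, Ebp from -0.16 to 0.02, Sc5d from -0.11 to 0.13, Srebf1 from -0.02 to 0.24, Insig1 from -0.26 to 0.20, Acly from -0.04 to 0.55 and Acaca from -0.05 to 0.53. The cause was not tested. Quantile normalization, trended and robust eBayes, the filter on dim genes, averaged rows and, for the count of members, the threshold of 0.1 moved no count or median beyond these limits: 1.5 times for a count, 1 SD of the array medians for a median. Single calls did change: Mvk did not pass with quantile normalization (limma adjusted p = 0.0625), where Msmo1 and Nsdhl did, nor with trended and robust eBayes (0.0651), where Dhcr7 did not pass either (0.0713). The medians of the mevalonate and fatty acid arms, 0.09 and 0.25, were -0.06 and -0.04 without transgenic replicate 1.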
